A study of Mus musculus with 4 samples.

Results

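A family of 8 scavenger receptor genes was chosen by name and followed in the peritoneal macrophages of chow-fed and high-fat-fed mice: Msr1, Marco, Cd36, Scarb1, Olr1, Stab1, Mrc1 and Cd163. They are 8 of the 33696 genes listed in the deposited expression files. The study sequenced wild-type mouse cells that were washed from the peritoneal cavity and sorted for CD45, a surface protein of leukocytes. The group CD received a chow diet and the group HFD a high-fat diet, in both cases from an age of 4 weeks and for 3 months. Each diet has 1 expression library and 1 library of B-cell receptors. Strain, number of mice and pooling are not given in the sources used here. With 1 expression library per diet, no difference between the diets has a replicate check.

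Scavenger receptors are structurally unrelated surface proteins that share the ability to bind modified lipoproteins, bacterial surfaces, dying cells and other polyanionic or lipid-rich cargo. Macrophages of the peritoneal cavity use them to clear particles from the fluid. Large peritoneal macrophages are the resident cells, kept by the transcription factor GATA6, whereas small macrophages derive from monocytes and carry more mannose receptor.

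Large macrophages were taken as barcodes with 5 or more unique molecular identifiers (UMIs, 1 per captured transcript) of Adgre1, Prg4, Alox15 and Garnl3 together and at most 2 of Folr2 and Cbr2. Folr2 macrophages had 3 or more UMIs of Folr2 and Cbr2. Barcodes with a B-cell receptor contig were left out of both. This gave 2064 large macrophages in CD and 1341 in HFD, and 194 and 192 Folr2 macrophages. Median depth was 4754.5 and 11546 UMIs per large macrophage, and 8251 and 18053 per Folr2 macrophage, so shares of barcodes with a UMI are also given after each barcode was thinned to 3000 UMIs.

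Levels are CPM, the UMIs of a gene per 1000000 UMIs of its class and library, and are not divided by transcript length because each UMI is 1 transcript end. The classes were checked against markers that the gates did not use. Gata6 stood at 97.4 CPM in CD large macrophages and 133 in HFD, and Timd4 at 226 and 95.7. The Folr2 gate mostly caught large macrophages with added genes: 179 of its 194 CD barcodes and 185 of its 192 HFD barcodes also met the large gate. Lyve1 was higher in it (145 CPM in CD, 72.7 in HFD) than in large macrophages (18.2 and 1.08 CPM). Retnla, a small-macrophage marker, was also higher (5743 and 2317 CPM against 1279 and 510). The 8 Folr2-macrophage markers, Lyve1 among them, differed less as a sum: 4814 and 5922 CPM against 3931 and 5477. Of these, F13a1 stood at 802 and 238 CPM against 318 and 37.9, and Pf4 at 3297 and 5322 against 3069 and 5164. RNA of other cells moved with diet. The 7 B-cell markers summed to 1371 CPM in CD and 323.9 in HFD large macrophages, and to 806 and 130.8 in Folr2 macrophages. The 5 small-macrophage markers summed to 1376 and 617 CPM in large macrophages, and most of those UMIs were Retnla. Of the other 4, Ccr2 stood at 33.8 CPM in CD and 18.7 in HFD, Irf4 at 16.7 and 8.86, Cd226 at 3.83 and 2.38, and Clec10a, which was higher in HFD, at 43.2 and 76.8. Barcodes with 3 or more UMIs of cell cycle genes made up 1.70% of CD and 13.7% of HFD large macrophages, and 3.09% and 25.0% of Folr2 macrophages. The defining mast cell marker Cpa3 had 0 UMIs in CD large macrophages, and the 4 mesothelial markers summed to 1 UMI there. The 4 mast cell markers summed to 7 UMIs in CD and 19 in HFD large macrophages. The 4 neutrophil markers summed to 109 CPM in CD and 101 in HFD large macrophages. No doublet caller was run, and 49.0% of CD and 35.7% of HFD large macrophages had 2 or more UMIs of lymphocyte genes. The libraries shared 30 barcodes, of which at most 4 fell in any of these macrophage classes per library.

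The sequence just upstream of the start is shown for Marco, Stab1 and Mrc1, the 3 members 2-fold or more lower in HFD large macrophages. It is also shown for Olr1, whose ratio was the highest of the members there (1.71-fold higher in HFD). Each run is the 250 bases before the RefSeq start in build GRCm38.p6, 5′ to 3′ on the gene's strand. Capitals mark matches to any of 4 short motifs on either strand. The first is GAGGAA, a core of the sites bound by PU.1. The second is AGATAA, a core of the sites bound by proteins of the GATA family. The others are TGANTCA for the factor AP-1 and AGGTCA, which is 1 arm of many nuclear receptor sites.
Marco (chr1:120505025-120505274, minus strand): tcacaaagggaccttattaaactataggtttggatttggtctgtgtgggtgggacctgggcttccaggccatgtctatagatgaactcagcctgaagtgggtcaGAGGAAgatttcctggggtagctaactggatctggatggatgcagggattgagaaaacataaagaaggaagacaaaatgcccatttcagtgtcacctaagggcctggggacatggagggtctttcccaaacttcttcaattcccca
Stab1 (chr14:31168642-31168891, minus strand): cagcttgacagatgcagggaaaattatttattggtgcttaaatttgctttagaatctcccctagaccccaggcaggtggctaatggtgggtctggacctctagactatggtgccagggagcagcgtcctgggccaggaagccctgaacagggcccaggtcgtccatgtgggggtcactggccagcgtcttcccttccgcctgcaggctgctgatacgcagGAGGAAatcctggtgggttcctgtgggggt
Mrc1 (chr2:14229164-14229413, plus strand): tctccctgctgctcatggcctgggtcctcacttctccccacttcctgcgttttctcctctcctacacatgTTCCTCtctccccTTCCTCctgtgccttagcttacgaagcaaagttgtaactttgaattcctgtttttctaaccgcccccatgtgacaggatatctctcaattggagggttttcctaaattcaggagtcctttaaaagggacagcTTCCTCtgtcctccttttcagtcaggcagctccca
Olr1 (chr6:129507166-129507415, minus strand): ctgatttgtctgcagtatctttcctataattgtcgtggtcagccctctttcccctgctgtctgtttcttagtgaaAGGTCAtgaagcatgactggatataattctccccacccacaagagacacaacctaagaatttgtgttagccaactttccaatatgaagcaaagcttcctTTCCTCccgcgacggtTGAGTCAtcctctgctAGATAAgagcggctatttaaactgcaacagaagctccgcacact
PU.1 is a lineage transcription factor of macrophages. Its core letters begin 146 bases before the start in Marco, 30 in Stab1, 76 in Olr1 and 180, 167 and 35 in Mrc1, on the opposite strand in the last 2 genes. The same letters occur in 23.3% of all 32851 RefSeq windows of this length. In Olr1 the AGATAA match begins 44 bases before the start, TGANTCA 60 and AGGTCA 175. These letters occur in 9.99%, 6.75% and 14% of the windows. The windows of Cd36 and Cd163 were searched as well and held 1 AGGTCA and no match. No match to 3 further motifs was found in the 6 members with a window. They were TTGCNNAA for C/EBP proteins, present in 9.56% of all windows, TGACNNNGC for the antioxidant response, in 10.2%, and the TATA box TATAAA, in 12.4%.

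Msr1, the class A receptor SR-A1 for acetylated lipoproteins and bacterial lipid A, barely differed between the diets. In large macrophages it stood at 378 CPM in CD (95% Poisson interval 368 to 389, 4943 UMIs) and at 397 in HFD (388 to 406, 6992 UMIs), which is a log2 ratio of HFD to CD of 0.07 (0.02 to 0.12). In Folr2 macrophages the level was 423 CPM in CD and 429.5 in HFD, which is a log2 ratio of 0.02 (-0.10 to 0.15). Here and in what follows an interval holds only the error of counting UMIs or barcodes, and the spread between mice is unknown. An interval of a CPM or of a ratio treats UMIs as independent. It is too narrow where few barcodes hold many of the UMIs. The share of large macrophages with an Msr1 UMI was 74.1% in CD and 86.7% in HFD, but 63.3% and 63.6% at equal depth. The gap in the unthinned shares was therefore not seen once depth was equal.

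Marco, a class A receptor with a collagen-like stalk that binds bacteria and unopsonized particles, had the lowest ratio of the 8 members in both macrophage classes, although in Folr2 macrophages its interval overlapped that of Cd163. Large macrophages held 1068 Marco UMIs in CD and 158 in HFD. The levels were 81.8 CPM (76.9 to 86.8) against 8.97 CPM (7.63 to 10.5), which is a log2 ratio of -3.19 (-3.44 to -2.95) or 9.12-fold. In Folr2 macrophages Marco stood at 122 CPM in CD (108 to 138) and 18.6 in HFD (14.4 to 23.7), which is a log2 ratio of -2.72 (-3.13 to -2.32). The 2 class A receptors differed in size of change: over all large macrophages Marco was lower in HFD, while the Msr1 ratio was near 0. In the shallow bin of 2000 to 4000 UMIs Msr1 was lower as well, at 377 CPM in CD and 250.7 in HFD (log2 ratio -0.59; -0.94 to -0.25).

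In large macrophages the Marco difference showed in how many barcodes had the transcript more than in the UMIs of a positive barcode. At 3000 UMIs per barcode, 202 of 1541 CD large macrophages had a Marco UMI (13.1%, exact Clopper-Pearson interval 11.5 to 14.9), against 17 of 1229 in HFD (1.38%, 0.808 to 2.21). Those that had it carried 1.83 UMIs each in CD and 1.94 in HFD. In Folr2 macrophages both were lower in HFD: 34 of 187 CD barcodes had a Marco UMI, at 2.24 UMIs each, against 7 of 192 in HFD, at 1.43 UMIs each. Marco was also unevenly spread. The variance of its thinned UMI count was 2.80 times the mean in CD and 2.85 in HFD large macrophages, whereas the same ratio for Msr1 was 1.20 and 1.15. Without thinning, 19 of the 2064 CD barcodes had 10 or more Marco UMIs, up to 36, and held 28.6% of all its UMIs. The 5% of CD barcodes with most Marco held 64.5% of its UMIs, and for Msr1 the same measure was 23.5%. In CD Folr2 macrophages the thinned Marco variance was 3.03 times the mean. Without thinning, 7 of those barcodes had 10 or more Marco UMIs and held 50.8% of its 250 UMIs.

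Marco was lower in HFD in each bin of sequencing depth. In barcodes of 4000 to 8000 UMIs it stood at 69.2 CPM in CD and 6.32 in HFD (log2 ratio -3.45), and above 16000 UMIs at 95.1 and 8.63 (-3.46). The gap was smaller in the shallow bin of 2000 to 4000 UMIs, with 105 CPM in CD and 43.3 in HFD (-1.28; -2.18 to -0.50), where the HFD value rests on 14 UMIs. Large macrophages with fewer than 2 lymphocyte UMIs gave 77.3 and 10.8 CPM (-2.84), those with 2 or more gave 86.2 and 4.58 CPM (-4.23), and those with fewer than 3 cell cycle UMIs gave 81.9 and 9.97 CPM (-3.04). The difference was therefore also present in barcodes with little lymphocyte RNA and in barcodes that were not cycling.

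**Figure D1:**
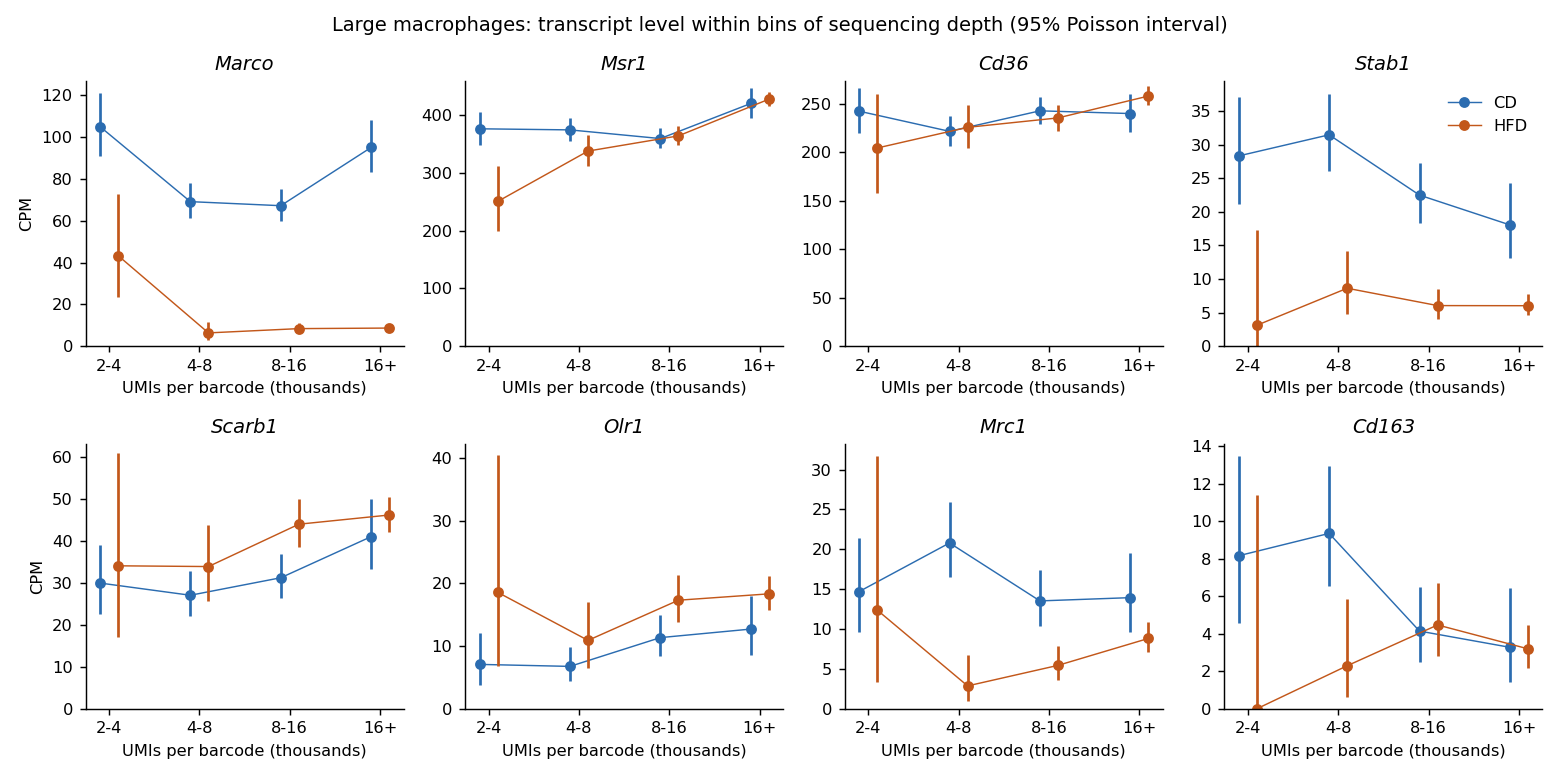
CPM of the 8 scavenger receptor genes in large macrophages (vertical axis, linear from 0) within 4 bins of UMIs per barcode (horizontal axis), with CD in blue, HFD in orange and bars for the 95% Poisson interval. Marco and Stab1 lie lower in HFD in each bin, while Msr1 and Cd36 of the diets lie together above 8000 UMIs.

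Cd36, the class B receptor that takes up oxidized lipoproteins and long-chain fatty acids, was level between the diets. Large macrophages held it at 237 CPM in CD (229 to 246) and 247 in HFD (240 to 255), which is a log2 ratio of 0.06 (-0.01 to 0.13). In Folr2 macrophages the values were 305 and 307 CPM (log2 ratio 0.01; -0.13 to 0.16). At equal depth 48.3% of CD and 46.9% of HFD large macrophages had a Cd36 UMI.

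Scarb1, the class B receptor SR-B1 that exchanges cholesterol with high-density lipoprotein, was moderately higher in HFD. It stood at 31.3 CPM in CD (28.3 to 34.5) and 44.1 in HFD (41.1 to 47.3) in large macrophages, which is a log2 ratio of 0.49 (0.32 to 0.67). Folr2 macrophages gave 26.4 and 41.2 CPM, which is a log2 ratio of 0.64 (0.18 to 1.12). Detection at equal depth was 7.92% in CD and 11.4% in HFD large macrophages. The CPM of CD large macrophages itself was 27.0 between 4000 and 8000 UMIs and 41.0 above 16000, and HFD barcodes were deeper. Within bins of depth the log2 ratios were 0.19 (-0.90 to 1.14) at 2000 to 4000 UMIs, 0.33 (-0.16 to 0.80) at 4000 to 8000, 0.49 (0.19 to 0.81) at 8000 to 16000 and 0.17 (-0.14 to 0.50) above 16000. HFD had the higher level in each bin, but only the interval at 8000 to 16000 UMIs left out equal levels. With barcodes thinned to equal depth the log2 ratio was 0.58 (0.24 to 0.93). Thinning draws UMIs at random and leaves the expected CPM of a barcode unchanged. It therefore cannot show whether the original depth of the barcodes contributed to the Scarb1 difference.

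Olr1, which encodes the lectin-like oxidized lipoprotein receptor LOX-1, went opposite ways in the 2 macrophage classes. In large macrophages it stood at 10.1 CPM in CD (132 UMIs) and 17.3 in HFD (304 UMIs), which is a log2 ratio of 0.77 (0.47 to 1.08). In Folr2 macrophages it stood at 23.0 CPM in CD and 7.89 in HFD, which is a log2 ratio of -1.54 (-2.27 to -0.84). The Folr2 value rests on few barcodes, since 47 CD UMIs came from 12 barcodes, 1 of them with 11 UMIs, and 28 HFD UMIs came from 17. At equal depth the Folr2 counts were 8 and 7 UMIs and no difference was detectable (log2 ratio -0.23; -1.93 to 1.43). In large macrophages at equal depth the log2 ratio was 1.73 (1.08 to 2.41), with 1.69% of CD and 4.56% of HFD barcodes positive, and 0.84 when barcodes were thinned to 2000 UMIs. In Folr2 barcodes of 4000 to 16000 UMIs the sign turned, at 1.09 (-1.47 to 3.86).

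Stab1, or stabilin-1, a receptor for acetylated lipoproteins and phosphatidylserine found on tissue macrophages and sinus endothelium, was lower in HFD. It stood at 26.0 CPM in CD (23.3 to 28.9) and 6.24 in HFD (5.13 to 7.53) in large macrophages, which is a log2 ratio of -2.06 (-2.38 to -1.75). In Folr2 macrophages it stood at 53.8 and 22.8 CPM, which is a log2 ratio of -1.24 (-1.67 to -0.81). The Folr2 ratio was under 2-fold with the gate at 5 or more UMIs (-0.78) and without cycling barcodes (-0.89). At equal depth 8.05% of CD and 1.46% of HFD large macrophages had a UMI. Unlike Marco, Stab1 was spread thinly, at 1.11 UMIs per positive barcode in CD and 1.06 in HFD.

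Mrc1, the mannose receptor CD206, differed most among the 8 members between Folr2 and large macrophages of HFD. In CD it stood at 89.5 CPM in Folr2 and 16.2 in large macrophages (5.54-fold), and in HFD at 52.7 and 7.27 (7.25-fold). Between diets the log2 ratio was -1.15 (-1.48 to -0.83) in large and -0.76 (-1.07 to -0.46) in Folr2 macrophages. In large macrophages it moved with the line drawn around the class: -0.74 with the gate at 3 or more UMIs and -1.60 at 10 or more. At equal depth the ratio was -2.11 (-3.05 to -1.28) in large macrophages, from 76 and 14 UMIs. It was -1.73 in barcodes with fewer than 2 lymphocyte UMIs and -0.33 (-0.78 to 0.11) in those with 2 or more. Of the small-macrophage markers, Retnla was also lower in HFD and Clec10a higher, as given above, and their part in the Mrc1 difference was not tested.

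Cd163, the receptor for haptoglobin-haemoglobin complexes, was lower in HFD mainly behind the Folr2 gate. Folr2 macrophages held it at 51.8 CPM in CD (42.4 to 62.7) and 8.74 in HFD (5.94 to 12.4), which is a log2 ratio of -2.57 (-3.20 to -1.98). The CD UMIs were unevenly spread, since 10 barcodes held 61.3% of the 106 UMIs and the thinned variance was 2.33 times the mean. The interval does not hold that spread. Detection in Folr2 macrophages at equal depth was 11.8% in CD and 3.13% in HFD. In large macrophages Cd163 was scarce, with 78 UMIs in CD and 60 in HFD (5.97 and 3.41 CPM; log2 ratio -0.81, -1.32 to -0.31). At equal depth no difference was detectable in large macrophages (-0.55; -1.46 to 0.32), and between 8000 and 16000 UMIs the ratio was 0.11. Whether the Cd163 ratio differs between the classes was not tested.

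**Figure D2:**
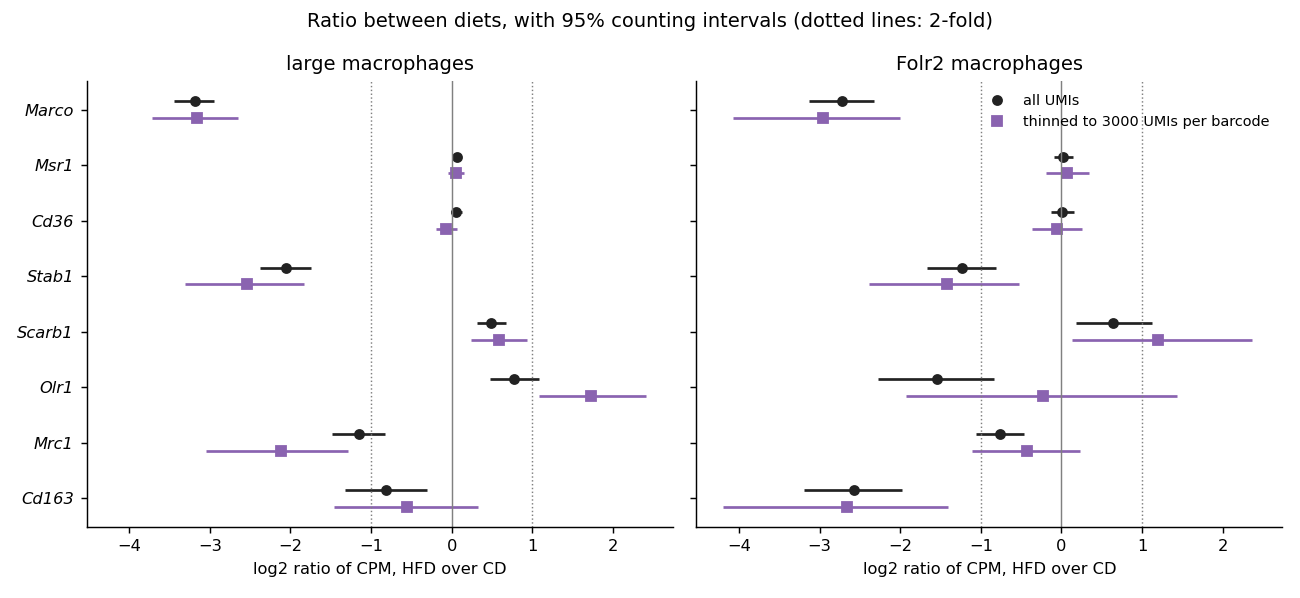
Log2 ratio of CPM, HFD over CD (horizontal axis), for each scavenger receptor gene (vertical axis) in large macrophages (left) and Folr2 macrophages (right), from all UMIs (black circles) and after thinning to 3000 UMIs per barcode (purple squares), with 95% counting intervals and dotted lines at 2-fold. Marco lies lowest among large macrophages at -3.19, and Msr1 and Cd36 lie at 0.07 and 0.06.

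Counted together, 3 of the 8 members (Marco, Stab1 and Mrc1) were 2-fold or more lower in HFD large macrophages and 0 were 2-fold higher. Of the 11148 genes with 50 or more UMIs over both libraries, 7.27% passed 2-fold in either direction, 4.95% lower and 2.32% higher. The median log2 ratio was -0.38 over the members and -0.06 over all genes. In Folr2 macrophages 4 members passed 2-fold lower (Marco, Stab1, Olr1 and Cd163) and 0 higher, where 4.63% of 7921 genes passed in either direction and 2.58% lower. The medians there were -1.0 and -0.01. After thinning, 3 members were lower (Marco, Stab1, Mrc1) and Olr1 was higher in large macrophages, against 4.92% of 8869 genes in either direction, 3.59% lower and 1.33% higher. In thinned Folr2 macrophages Marco, Stab1 and Cd163 were lower and Scarb1 was higher (log2 ratio 1.20; 0.14 to 2.37), against 3.60% of 3002 genes in either direction, 2.33% lower and 1.27% higher. Of the 8 members 5 had 50 or more UMIs in that thinned table, and Cd163, Scarb1 and Olr1 did not. The members were picked as a family with earlier results known, so these counts describe them only.

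The Folr2 gate separated the members within each diet. In CD 4 members were 2-fold or more higher in Folr2 than in large macrophages, against 1.25% of 10099 genes higher and 2.88% lower: Cd163 (8.68-fold), Mrc1 (5.54-fold), Olr1 (2.27-fold) and Stab1 (2.07-fold). In HFD Mrc1, Stab1 (3.66-fold), Cd163 (2.57-fold) and Marco (2.07-fold) passed, against 1.17% of 10400 genes, and Olr1 was 2.19-fold lower, against 2.49% of genes lower. With all UMIs, Msr1, Cd36 and Scarb1 differed by at most 1.28-fold between the classes in either diet. At equal depth the intervals of Mrc1 and Stab1 in either diet and of Cd163 in CD stayed above 0. No class difference was detectable at equal depth for Olr1 in CD (log2 ratio 1.24; -0.11 to 2.41). The same held in HFD for Marco (0.96; -0.23 to 2.01), Cd163 (1.09; -0.53 to 2.49) and Olr1 (-0.72; -2.09 to 0.39). These 4 values rest on at most 10 Folr2 UMIs each.

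Other cell classes placed each receptor. The remaining Csf1r-positive cells, which had at most 1 UMI of the large gate and none of Folr2 or Cbr2, numbered 37 in CD and 15 in HFD, and small-macrophage markers summed to 11710 and 8221 CPM there. They had 0 UMIs of Marco, Stab1 and Olr1 in either library. This allows up to 8.11% of the CD and 20% of the HFD barcodes to carry one. The bound lies above the share in large macrophages for Olr1 in both diets and for Marco and Stab1 in HFD. Mrc1 was at its highest level in the remaining Csf1r-positive cells, at 195 CPM in CD (140 to 263) and 265 in HFD (193 to 355). Its interval there overlaps that of cDC2 in CD but not in HFD. Cd36 stood at 255 and 306 CPM, with intervals that overlap those of large macrophages in both diets. Cd163, at 32.5 and 17.7 CPM, overlapped with Folr2 macrophages. Msr1 was low there, at 13.9 and 29.5 CPM from 3 and 5 UMIs. The cDC2, dendritic cells defined by Flt3 and Cd209a (52 and 25 barcodes), had Mrc1 at 132 and 95.3 CPM and Scarb1 at 42.4 and 50.8. Msr1 was higher in both macrophage classes than in either of these, with intervals that do not overlap. For Marco and Stab1 this held in CD, where 0 UMIs in the remaining Csf1r-positive cells allow up to 17.1 CPM. In HFD they allow up to 21.7 CPM, above the 8.97 CPM of Marco and the 6.24 of Stab1 in large macrophages, so a difference was not detectable at this depth. Nor was one detectable for Olr1 between these cells and large macrophages in either diet. The cDC2 held 1 Olr1 UMI in HFD (3.18 CPM, 0.0804 to 17.7), with an interval that overlaps both macrophage classes. Mrc1 was higher in the remaining Csf1r-positive cells than in both macrophage classes, and the cDC2 interval of Scarb1 overlapped that of large macrophages.

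**Figure D3:**
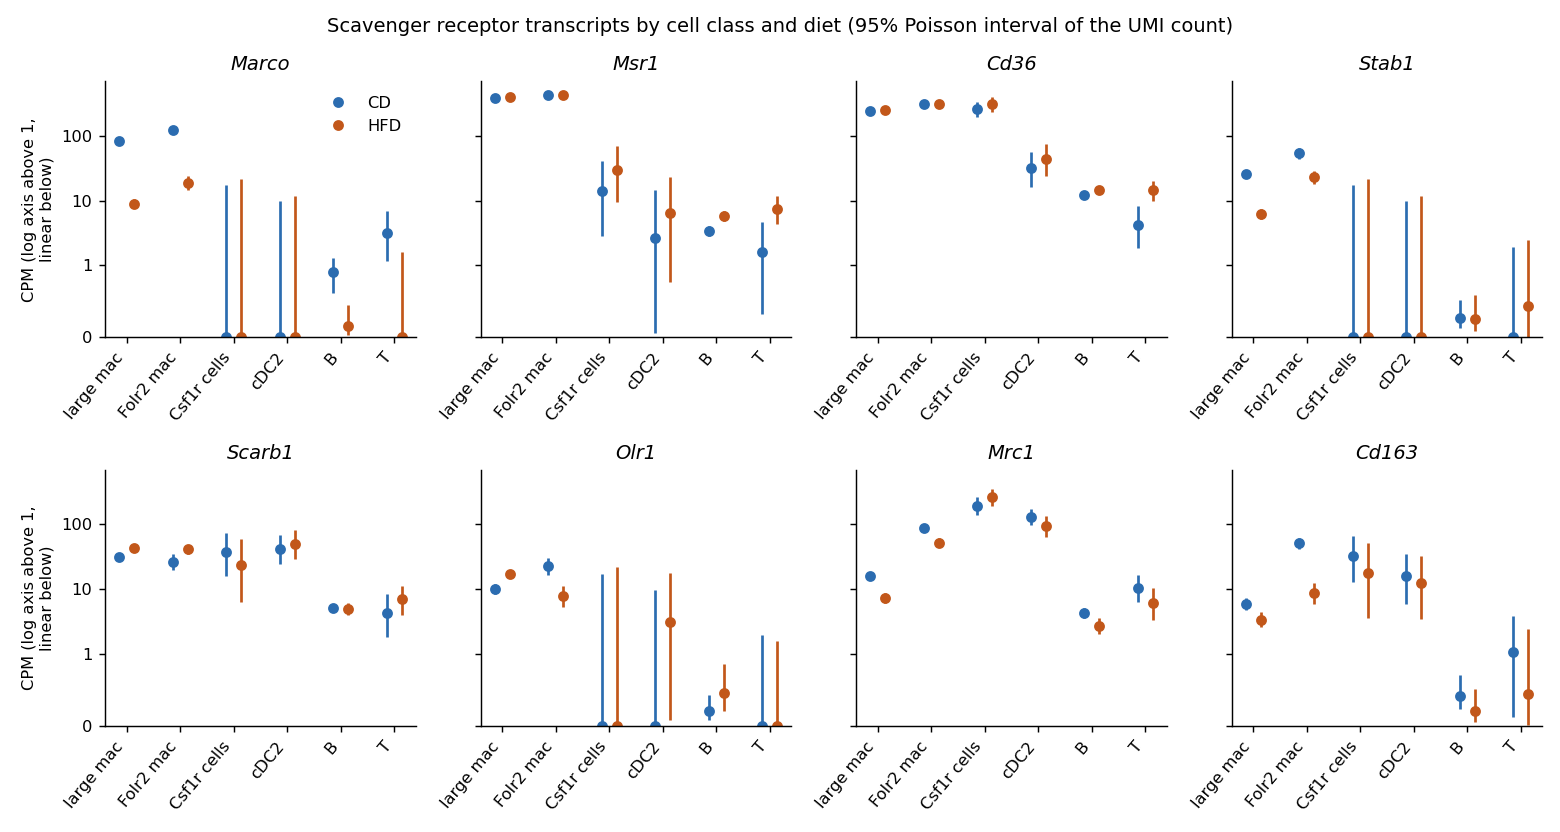
CPM (vertical axis, logarithmic above 1 and linear below) of each scavenger receptor gene in 6 cell classes, with CD in blue, HFD in orange and bars for the 95% Poisson interval. Marco and Stab1 sit at 0 in Csf1r cells and cDC2, while Mrc1 peaks in Csf1r cells at 195 CPM in CD and 265 in HFD.

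B cells served as the background for free RNA. An Msr1 UMI was found in 1.82% of CD and 3.86% of HFD B cells, at median depths of 4524 and 5883 UMIs, and a Marco UMI in 0.488% and 0.105%. Marco UMIs per Msr1 UMI were 0.216 in large macrophages and 0.265 in B cells of CD, and 0.0226 and 0.0263 in HFD, where the B-cell values rest on 30 and 3 Marco UMIs. T cells gave 6 Marco and 3 Msr1 UMIs in CD, and 0 and 17 in HFD, too few to compare. The other 3 members compared here lay above their macrophage ratio in B cells. Cd36 UMIs per Msr1 UMI were 0.627 in large macrophages and 3.57 in B cells of CD, Scarb1 0.0827 and 1.5, and Mrc1 0.0427 and 1.27. The B cells were gated on at most 1 UMI of the large gate, which lowers their macrophage RNA. Macrophage shares at equal depth stood above the B-cell shares at equal depth for all 8 genes in both diets. Mrc1 was nearest in HFD large macrophages, at 0.895% (0.448 to 1.60) against 0.431% (0.216 to 0.771). These intervals overlap, so Mrc1 could not be set apart from the B-cell share there. Nor could Mrc1 be set apart from T cells, of which 1.23% in HFD had a UMI at equal depth. The T-cell level (10.6 CPM in CD, 6.15 in HFD) had an interval that overlaps that of large macrophages in both diets.

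Within single barcodes of large macrophages the 2 abundant receptors were found together slightly more often than separate shares give. At equal depth 32.5% of CD and 31.8% of HFD large macrophages had both Msr1 and Cd36, 1.06 and 1.07 times the product of their shares. Folr2 macrophages showed no such excess for Msr1 and Cd36, at 0.99 times the product in either diet. Marco and Msr1 gave 1.07 times there in CD, and in HFD 2 barcodes had both where the product gives 5.25. In large macrophages Marco and Msr1 gave 1.04 times in CD and 0.92 in HFD, where 10 barcodes had both. Marco and Cd36 gave 1.14 times in CD and 1.38 in HFD, from 11 HFD barcodes. Cd36 and Scarb1 gave 1.32 times in CD and 1.01 in HFD. Marco and Stab1 were together in 20 CD barcodes where the product gives 16.3. In HFD Msr1 and Mrc1 were together in 3 barcodes where the product gives 7.0. A barcode had on average 1.48 of the 8 genes in CD and 1.32 in HFD large macrophages, and 1.91 and 1.73 in Folr2 macrophages. Large macrophages with 3 or more of the genes made up 14.9% in CD and 6.59% in HFD.

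**Figure D4:**
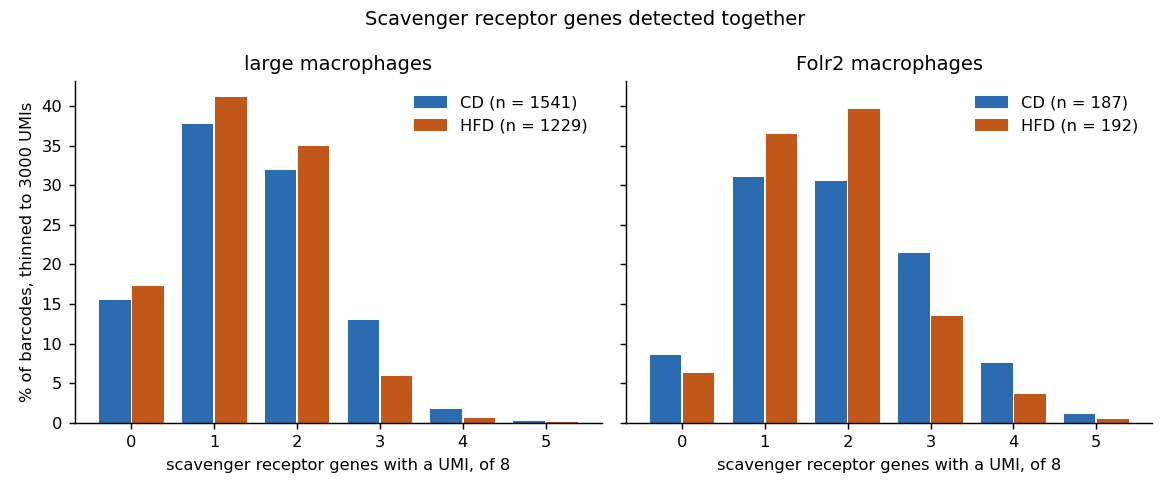
Share of barcodes (vertical axis, percent) by the number of scavenger receptor genes with a UMI after thinning to 3000 UMIs (horizontal axis), in large (left) and Folr2 macrophages (right), with CD in blue and HFD in orange. In large macrophages the CD bar at 3 genes is 12.9% and the HFD bar 5.86%.

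Large macrophages with and without a given receptor differed in other genes. The genes named here were picked from the marker and lipid lists after their values were seen. Other markers of these lists, Gata6 among them, are not given for this split. In CD, the 63 thinned barcodes with an Mrc1 UMI had less of the resident markers Timd4 (74.1 CPM against 253 in the 1478 without) and Selp (122 against 356). They had more Retnla (4460 against 1098), Ccr2, the monocyte chemokine receptor (138 against 20.5), and Lyve1 (52.9 against 18.7), and less of the fatty acid carrier Fabp4 (524 against 1691). The Mrc1-positive barcodes thus had less of these resident markers and more Retnla and Ccr2, with log2 ratios of -1.77 (-2.65 to -1.02) for Timd4 and 2.74 (2.06 to 3.39) for Ccr2. For Timd4 and Retnla the 202 Marco-positive barcodes did not share that pattern: Timd4 was at 314 against 235 CPM and Retnla at 942 against 1279. Apoe, which was not part of that pattern, was level between barcodes with and without Marco (log2 ratio 0.00; -0.03 to 0.04). The 124 Stab1-positive barcodes had more F13a1 (505 against 303) and Lyve1 (40.3 against 18.4) and level Timd4.

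**Figure D5:**
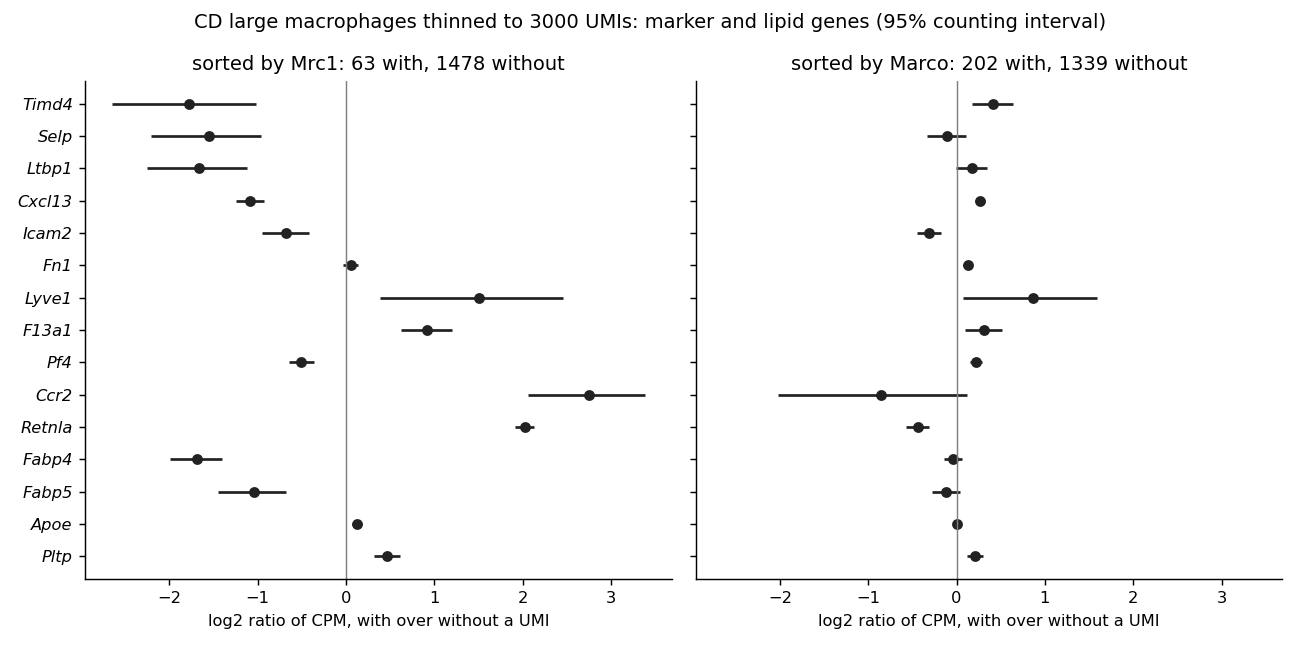
Log2 ratio of CPM (horizontal axis) for marker and lipid genes (vertical axis, picked for display after their values were seen) between CD large macrophages with and without an Mrc1 UMI (left) or a Marco UMI (right), thinned to 3000 UMIs, with 95% counting intervals. Ccr2 and Retnla lie at 2.74 and 2.02 and Timd4 at -1.77 for Mrc1, and Timd4 at 0.41 for Marco.

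The genes around these receptors gave a mixed picture. For comparison, 4.95% of all 11148 genes were 2-fold or more lower in HFD large macrophages and 2.32% higher. The median log2 ratio over all genes was -0.06. Of 19 other scavenger receptors, 9 had 50 or more UMIs in large macrophages. Colec12, a collectin of the class A family, was 2-fold lower in HFD (20.2 and 8.0 CPM, log2 ratio -1.34) and 0 were 2-fold higher, with a median of -0.17. Clec7a, the beta-glucan receptor dectin-1, had a ratio of -0.70 in large and -1.59 in Folr2 macrophages, Scarf2 -0.50 in large macrophages, and the secreted scavenger protein Cd5l 0.50 and 0.94. Of 6 lipoprotein receptor genes 4 were measured. Sorl1, a sorting receptor, stood at -1.97, Lrp1, the large endocytic receptor, at 0.49 and its chaperone Lrpap1 at 0.01. B-cell marker RNA was also lower in HFD, and its part in these ratios was not tested.

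Among 14 genes that handle lipid after uptake the median log2 ratio in large macrophages was -0.10, with 1 gene 2-fold lower (Apoe, -2.13) and 0 higher. Over all genes 4.95% were lower and 2.32% higher, with a median of -0.06, so these counts do not set the list apart. Pltp, which moves phospholipid between lipoproteins, was at -0.74, and Fabp5 and the lipase Lpl at 0.66 and 0.64. In Folr2 macrophages Apoe was at -1.90. Of 12 macrophage transcription factors 11 were measured, and Klf4 was 2-fold higher (51.2 and 107.6 CPM, log2 ratio 1.07) in large macrophages. Irf4 was at -0.91 in large and -1.46 in Folr2 macrophages, and Nfe2l2 at -0.27 in large macrophages. Haem handling genes, which act after uptake by Cd163, had 0 of 6 measured genes past 2-fold in either class. Over all genes 7.27% passed in large and 4.63% in Folr2 macrophages, so 0 of 6 does not set the list apart. Ferritin heavy chain Fth1 was at -0.79 and -0.77, haem oxygenase Hmox1 at -0.42 and -0.36, and the biliverdin reductases Blvra and Blvrb at 0.20 and -0.13 in large macrophages.

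The genes most like each member were found over 9 combinations of class and library with at least 50 barcodes, by Pearson's r of log2(CPM + 1) among 11432 genes. These points share 2 libraries and a split between macrophages and lymphocytes, so r is high for many genes. For Marco the closest was Cp, which encodes ceruloplasmin, the copper-carrying ferroxidase (r = 0.989). Cp stood at 24.0 CPM in CD and 6.76 in HFD large macrophages. For Msr1 it was Bmp2 (0.998), for Cd36 Abhd12 (0.995), for Scarb1 Fmnl2 (0.996) and for Olr1 A530013C23Rik (0.993). For Stab1 the closest was Wfdc18 (0.996), and Fabp3 was the third (0.992). For Mrc1 the closest was E230016K23Rik (0.978), and the second was Pparg, the nuclear receptor of fatty acid metabolism (0.976). Pparg stood at 8.31 and 8.46 CPM in Folr2 macrophages of CD and HFD and 2.07 and 0.852 in large macrophages. These levels rest on few UMIs, 17 and 30 in Folr2 and 27 and 15 in large macrophages. For Cd163 the closest was Ddi2 (0.978).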

How the data were processed

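The deposited expression files hold UMI counts per gene and barcode, with no normalization; per the file headers Cell Ranger 8.0.1 wrote them, while the submitters' processing notes give Cell Ranger 6.0.1 with Seurat 4.3.0 and build mm39. The deposited receptor tables hold read and UMI counts per contig, of which only the barcodes were used. The labels' protocols name a 3′ kit, so counts are transcript ends and were not divided by length. The treatment note in the labels puts both groups on the high-fat diet; groups follow the titles and the series design.

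Kept barcodes had 300 or more genes and a mitochondrial share of UMIs no higher than 10% (13069 of 13227 in CD, 6684 of 6897 in HFD; 73549582 and 57630074 UMIs in all). UMIs were summed per class and library and given as CPM. With 1 library per diet there is no test and no p-value, and 2-fold describes size. Log2 ratios carry the exact conditional interval of 2 Poisson counts, and shares the Clopper-Pearson interval, both at 95%. A share of 0 was bounded by 3 barcodes, and a level of 0 CPM by the upper limit of its exact 95% Poisson interval. Thinning was 1 seeded draw to 3000 UMIs per barcode, which left out 523 CD and 112 HFD large macrophages. The ratio script was tested on simulated counts. Members and gene lists were chosen with earlier results of these data known. Named genes are the 8 members, the 3 closest to each by correlation (not all are printed), up to 4 per list by absolute ratio in large and 2 in Folr2 macrophages, and markers. Some genes that this rule names are not reported here. Upstream sequences are from RefSeq (GRCm38.p6), where 6 of 8 members matched. Python 3.11.15, numpy 2.4.6, scipy 1.17.1, pandas 2.3.3 and matplotlib 3.10.9 were used.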

Additional observations from a re-analysis of the deposited data

Results flagged for a closer look

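Olr1 had log2 ratios of HFD over CD of opposite sign in the 2 macrophage classes, 0.77 in large macrophages and -1.54 in Folr2 macrophages. The difference between the classes was not tested, since each diet has 1 library.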

How the results depend on the processing

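The number of members past 2-fold was 2 to 4 in large macrophages over 16 alternative settings and 3 to 4 in Folr2 macrophages over 15. The settings changed the quality filter, the gates, the contig rule, lymphocyte-bearing and cycling barcodes, depth, the weight of barcodes, scaling and the UMI minimum. The UMI minimum left out no member, so that setting repeated the main values in either class. In Folr2 macrophages the stricter and the looser quality filter repeated them as well. The counts of settings below include these repeats, which could not change a result. Large-macrophage Marco ranged from -3.64 to -2.84 and Stab1 from -2.53 to -1.87, both past 2-fold in each setting. Mrc1 ranged from -2.86 to -0.74 and was past 2-fold in 15 of 16, and Cd163 from -2.03 to 0.11. Olr1 ranged from 0.54 to 1.73, Scarb1 from 0.33 to 0.62, Msr1 from -0.15 to 0.13 and Cd36 from -0.06 to 0.12. In Folr2 macrophages Marco (-3.08 to -2.24) and Cd163 (-3.51 to -2.31) were past 2-fold in each of 15 settings, Stab1 (-1.42 to -0.67) in 10 and Olr1 in 12. Olr1 there turned to 1.09 in barcodes of 4000 to 16000 UMIs (-1.47 to 3.86), and the cause was not tested. No paired analysis was possible because each diet has 1 library. Thinned values of Olr1, Mrc1 and Cd163 rest on at most 76 UMIs per library in large macrophages, so depth limits them.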

Other observations

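In HFD large macrophages, the 17 thinned barcodes that kept a Marco UMI had more Cxcl13 (2157 CPM against 623 in those without; log2 ratio 1.79, 1.5 to 2.07), Apoe (7510 against 3481; 1.11) and Lipa, lysosomal acid lipase (235 against 66.8; 1.82, 0.84 to 2.65). These 3 genes were picked after their values were seen. In CD the same split gave log2 ratios of 0.27 for Cxcl13, 0.00 for Apoe and 0.50 for Lipa.

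Mrc1 in cycling large macrophages stood at 73.3 CPM in CD (29 UMIs in 35 barcodes) and 15 in HFD (49 UMIs in 184 barcodes), against 14.4 and 5.51 CPM in barcodes that were not cycling. In CD B cells 143 Mrc1 UMIs lay in 74 of 6145 barcodes.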
